A study of Mus musculus with 1087 samples.

Results

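The 44 genes described here act in G2 and mitosis, the stretch of the cell cycle in which a cell with copied DNA prepares for and carries out division. They were taken by name from the table of read counts, 44 of its 46078 genes, and each was found in 1 entry. The table holds 1087 single cells sorted from the AGM (aorta-gonad-mesonephros) of mouse embryos. In this tissue blood stem cells first arise, budding from the endothelium of the aorta. All embryos carried 1 allele of Gata2 linked to the Venus fluorescent protein (Gata2V/+), from C57BL/6HsdJOla wild-type females and Gata2V/V males, and every cell is named KitHi. The cells form 5 groups. Cells of the G2VInt gate were taken at E10 (87 cells), E11 (130 cells) and E11.5 (279 cells), those of the G2VLo gate at E11.5 (472 cells) and those sorted as CD27+ at E11.5 (119 cells). Venus reports the Gata2 locus, so the gates sort cells on a reporter of the gene and not on its product. That product is a transcription factor that is itself needed to form hematopoietic stem cells. The authors' clusters and classes (EC, HC1, HC2, U1 and U2) come with every cell except the CD27+ cells, which were placed only in a second clustering, of all cells. The labels do not spell these names out. The sum of 7 endothelial marker genes was 6483 CPM (read counts scaled to a common library size) in cluster 1 and 4881 CPM in cluster 2, which form EC, against 2018 and 1023 CPM in clusters 7 and 8, which form HC1. The sum of 7 stem and progenitor markers was 90.1 and 51.6 CPM in clusters 1 and 2 and 986 and 852 CPM in clusters 7 and 8.

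Entry into mitosis is driven by the kinase Cdk1 bound to a cyclin and to a small Cks protein. The phosphatase Cdc25 activates the complex, the Plk1 and Aurora kinases build the spindle and drive centrosome and chromosome movement, and the spindle checkpoint kinases hold the cell until each kinetochore is attached. Cdc20 then switches on the anaphase-promoting complex, which with Ube2c marks cyclin B for destruction, and the cell leaves mitosis and splits by cytokinesis. Most of these genes are repressed in resting and early cycling cells and switched on late in the cycle through a shared promoter arrangement. It consists of CCAAT boxes bound by NF-Y and, near the transcription start, a cell cycle genes homology region (CHR) bound by the DREAM and MuvB complexes. In blood formation, the share of cells in cycle is a classic difference between dividing progenitors and resting stem cells.

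The promoter arrangement could be read in the RefSeq windows of 250 bases before to 50 bases after each start (GRCm38.p6). A window was found for 37 of the 44 genes, with more than 1 window for Ect2 and Gtse1. The 7 others are Aurkb, Ccna2, Cdc25c, Dlgap5, Kif20a, Smc4 and Tpx2. Stretches of 8 of the 37 are printed from 120 bases before to 30 bases after the start, with every match on either strand in capitals, to the CHR (TTTGAA, in reverse complement TTCAAA, or the palindrome TTCGAA) or to CCAAT (in reverse complement ATTGG). The first 6 were picked to show members of several roles with a CHR match, and Nek2 and Nusap1 are shown because their ratios between the gates are among the largest while their windows hold no CHR match.
Cdk1, chr10:69352883-69353032, - strand: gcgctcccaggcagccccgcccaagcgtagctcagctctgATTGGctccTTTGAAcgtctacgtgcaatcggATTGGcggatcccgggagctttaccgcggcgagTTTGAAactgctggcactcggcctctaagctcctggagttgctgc
Ccnb2, chr9:70421525-70421674, - strand: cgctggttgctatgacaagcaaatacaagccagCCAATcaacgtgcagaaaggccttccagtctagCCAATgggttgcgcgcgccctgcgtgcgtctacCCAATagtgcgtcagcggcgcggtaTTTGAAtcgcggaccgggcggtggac
Cdc20, chr4:118437314-118437463, - strand: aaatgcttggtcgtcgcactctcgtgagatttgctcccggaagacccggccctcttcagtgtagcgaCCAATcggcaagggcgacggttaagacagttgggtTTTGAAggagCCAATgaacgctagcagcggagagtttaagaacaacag
Ube2c, chr2:164769809-164769958, + strand: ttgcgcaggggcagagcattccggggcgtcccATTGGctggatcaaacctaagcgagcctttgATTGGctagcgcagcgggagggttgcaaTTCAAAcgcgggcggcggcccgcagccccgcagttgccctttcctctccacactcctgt
Kif11, chr19:37376262-37376411, + strand: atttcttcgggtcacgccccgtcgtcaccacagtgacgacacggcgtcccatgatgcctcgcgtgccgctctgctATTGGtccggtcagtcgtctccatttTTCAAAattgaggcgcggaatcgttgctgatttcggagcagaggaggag
Top2a, chr11:99024160-99024309, - strand: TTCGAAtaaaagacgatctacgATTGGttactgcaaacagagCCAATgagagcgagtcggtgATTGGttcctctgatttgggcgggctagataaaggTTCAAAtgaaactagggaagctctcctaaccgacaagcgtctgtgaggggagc
Nek2, chr1:191821353-191821502, + strand: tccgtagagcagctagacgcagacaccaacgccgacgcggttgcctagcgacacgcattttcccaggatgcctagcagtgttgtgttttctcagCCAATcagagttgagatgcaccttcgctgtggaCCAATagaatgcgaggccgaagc
Nusap1, chr2:119618178-119618327, + strand: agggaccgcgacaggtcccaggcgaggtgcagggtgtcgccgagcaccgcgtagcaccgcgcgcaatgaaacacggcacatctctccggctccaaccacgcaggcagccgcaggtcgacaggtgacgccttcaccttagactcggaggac

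Of the 37 genes, 27 (73.0%) had TTTGAA on either strand in a window, against 20.2% of 27025 genes with windows in the table. TTCGAA was found in 3 (8.11%), against 1.80%. The 2 forms together were found in 28 genes (75.7%, against 21.7%), and within 50 bases of the start in 24 (64.9%, against 6.12%). A CCAAT box was found in 29 genes (78.4%, against 41.1%), and both elements in 24 (64.9%, against 8.61%). Some windows hold several matches, and neighbouring matches may share a base. In Cdk1 a CHR match began 15 bases before the start, in Cdc20 18 bases before, in Kif11 19 bases before, in Ube2c 29 bases before, in Ccnb2 at base 5 and in Plk1 at base 31. The 9 genes with no match to either form in their windows were Birc5, Ccnb1, Cenpe, Cks2, Gtse1, Nek2, Nuf2, Nusap1 and Tacc3. In 43 other G2 and mitosis genes with windows, 76.7% had 1 of the CHR forms, and in 29 S phase genes 20.7% did, while CCAAT boxes were found in 67.4% and 75.9%. A match describes the letters of a window only.

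**Figure D1:**
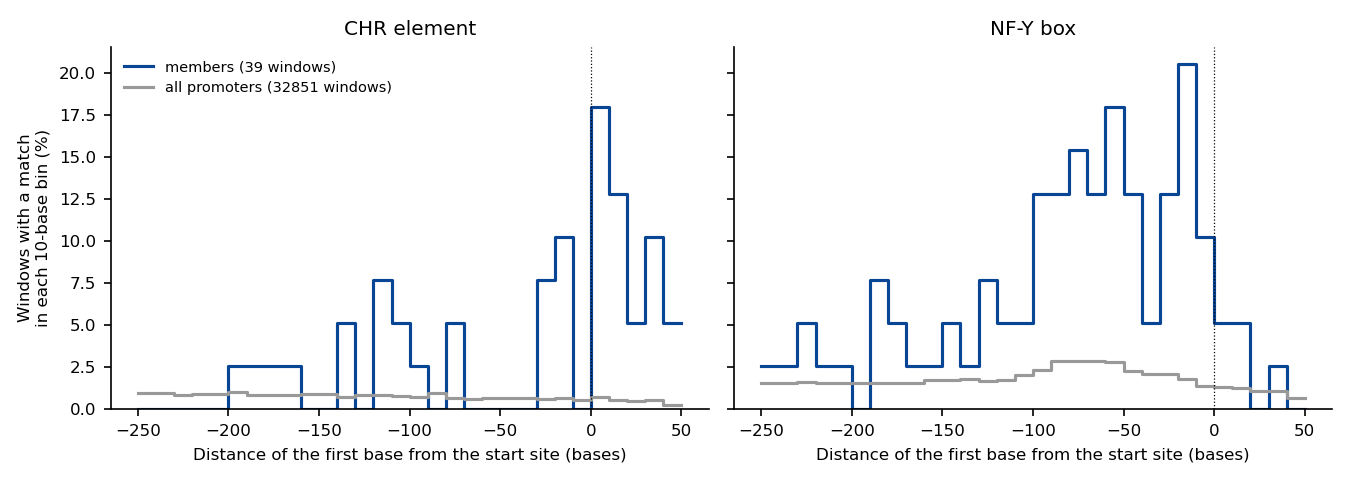
Position of matches to the CHR (left) and to the CCAAT box bound by NF-Y (right) in promoter windows. The x axis gives the distance of the first matching base from the start site in bases and the y axis the percent of windows with a match in each 10-base bin, for the 39 windows of the 37 members and for all 32851 windows. CHR matches of the members lie mostly within 50 bases of the start, and CCAAT matches mostly before it.

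The cells held 117369 to 6999570 reads on genes (median 818924). No embryo, litter or sort is named for any cell, so each group is 1 sample. Differences are therefore given as ratios of summed reads with no test, and intervals (exact Poisson for CPM, exact Clopper-Pearson for shares, both 95%) cover counting error only. A difference of 1.5-fold or more is counted as past the threshold. Beside each count over the 44 members stands the share of all measured genes past it. Counts of marker genes stand without such a share. A ratio of summed reads cannot tell fewer cells in the phase from less RNA per cell. All 44 genes passed the limit on low values (10 CPM or more on 1 side, with reads in 5% or more of that side's cells) in every comparison. Library numbers in the sample names lie in stretches that do not mix groups, so cells were also summed in runs of 96 consecutive numbers within a group.

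Over all cells the 44 genes together held 7474 CPM. In level per length (RPKM, the CPM divided by exon length in kb) they spanned a wide range, from 6.28 for Cenpf to 206 for Cks1b.

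Cyclins, Cdk1 and its partners held the largest share of the members' reads, 1569 of 7474 CPM. Cks1b, a small Cdk-binding subunit, was highest of the role per length, followed by the cyclin Ccnb2 (167 RPKM) and by Cdk1 (110 RPKM), the kinase itself. Cdc25c, the activating phosphatase, was the lowest of the role at 8.17 RPKM. Cdk1 held 649 CPM at E10, 580 at E11, 497 in E11.5 G2VInt, 513 in G2VLo and 544 in CD27+ cells. Over these whole groups the values stay within a narrow band. Cyclin B1 (Ccnb1) ran lower and wider, at 159, 148, 98.8, 90.4 and 107 CPM in the same order. Within cluster 7 at E11.5, Cdk1 held 432 to 566 CPM in the G2VInt runs and 171 to 341 CPM in the G2VLo runs. In cluster 8 it held 516 to 873 and 192 to 574 CPM. The ranges do not overlap in cluster 7, while those in clusters 8, 1 and 2 do.

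Among the kinases of mitosis and the spindle checkpoint, Plk1 was highest at 108 RPKM and Nek2, a centrosome kinase, lowest at 12.6 RPKM. Aurka, which acts at spindle poles, held 252 CPM at E10, 237 at E11, 165 in E11.5 G2VInt, 137 in G2VLo and 157 in CD27+ cells. Bub1, a checkpoint kinase, held 148, 113, 74.9, 83.1 and 72.4 CPM. Both were higher in E10 and E11 than in each of the E11.5 groups. EC cells, a larger share of the G2VInt and G2VLo cells of E11.5 than of the earlier groups, held 132 CPM of Aurka and 75.1 CPM of Bub1, against 245 and 118 CPM in HC1. CD27+ cells carry no class, and the part of class in these Aurka and Bub1 values was not tested. Of the factors that work with ubiquitin ligases, Cdc20 reached 180 RPKM and Ube2c 143 RPKM, with Cdca3, a trigger of mitotic entry, at 45.1 RPKM. In CD27+ cells Ube2c stood at 423 CPM, near its level at E10 (436 CPM) and E11 (435 CPM) and above the G2VInt (335 CPM) and G2VLo (318 CPM) cells of E11.5. By class it held 322 CPM in EC and 441 CPM in HC1. The summed level of all members was 5816 CPM in the first run of CD27+ cells and 10203 CPM in the second. The part of class and run in these Ube2c values was not tested.

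In the centromere and passenger group, Birc5 (survivin, a passenger protein) was highest at 67.7 RPKM and Cenpf, a very long kinetochore protein, lowest. Cenpa, the histone H3 variant of centromeres, had reads in 92.2% of thinned cells. Ndc80 and Nuf2, which bind microtubules as partners in 1 complex, lay close together at 11.3 and 10.8 RPKM. Of the kinesins, Kif20a of the central spindle was highest (37.3 RPKM) and Kif20b lowest (8.61 RPKM). Kif11, the motor that pushes spindle poles apart, lay at 15.5 RPKM.

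Of the spindle assembly and microtubule binding genes, Tacc3 was highest (65.2 RPKM) and Dlgap5 lowest (9.13 RPKM). In cytokinesis, Racgap1 of the centralspindlin complex (20.7 RPKM) lay above Ect2, the exchange factor it recruits (12.6 RPKM), and Anln, the scaffold of the contractile ring (10.8 RPKM). In chromosome structure, Anp32e, a histone chaperone, was highest (67.8 RPKM) and Mki67, the Ki-67 protein that coats mitotic chromosomes, lowest (24.3 RPKM). Mki67 was highest in class U1 (434 CPM), whose larger cluster 5 also held 8095 CPM of 6 macrophage markers, against 200.5 CPM in EC, 256 in HC1 and 222 in HC2. Top2a, the DNA topoisomerase of chromosome condensation, held 553 CPM in HC1 against 333 in EC and 351 in HC2.

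Reads of some members could be shared with other genes. Exons of 12 members overlap exons of another gene, 11 of them on the opposite strand, and whether the counting used strand is not given in the sources used here. The largest such neighbours were Elovl1 at Cdc20 (180 against 336 CPM) and Cdc23 at Kif20a (142 against 162 CPM). Ccnb1, Cks2, Mki67, Ndc80 and Racgap1 have stretches of at least 200 bases at 95% identity or more in another annotated transcript, and Ccnb1-ps and Gm12856 held 12.2 and 13.0 CPM beside 117 for Ccnb1.

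**Figure D2:**
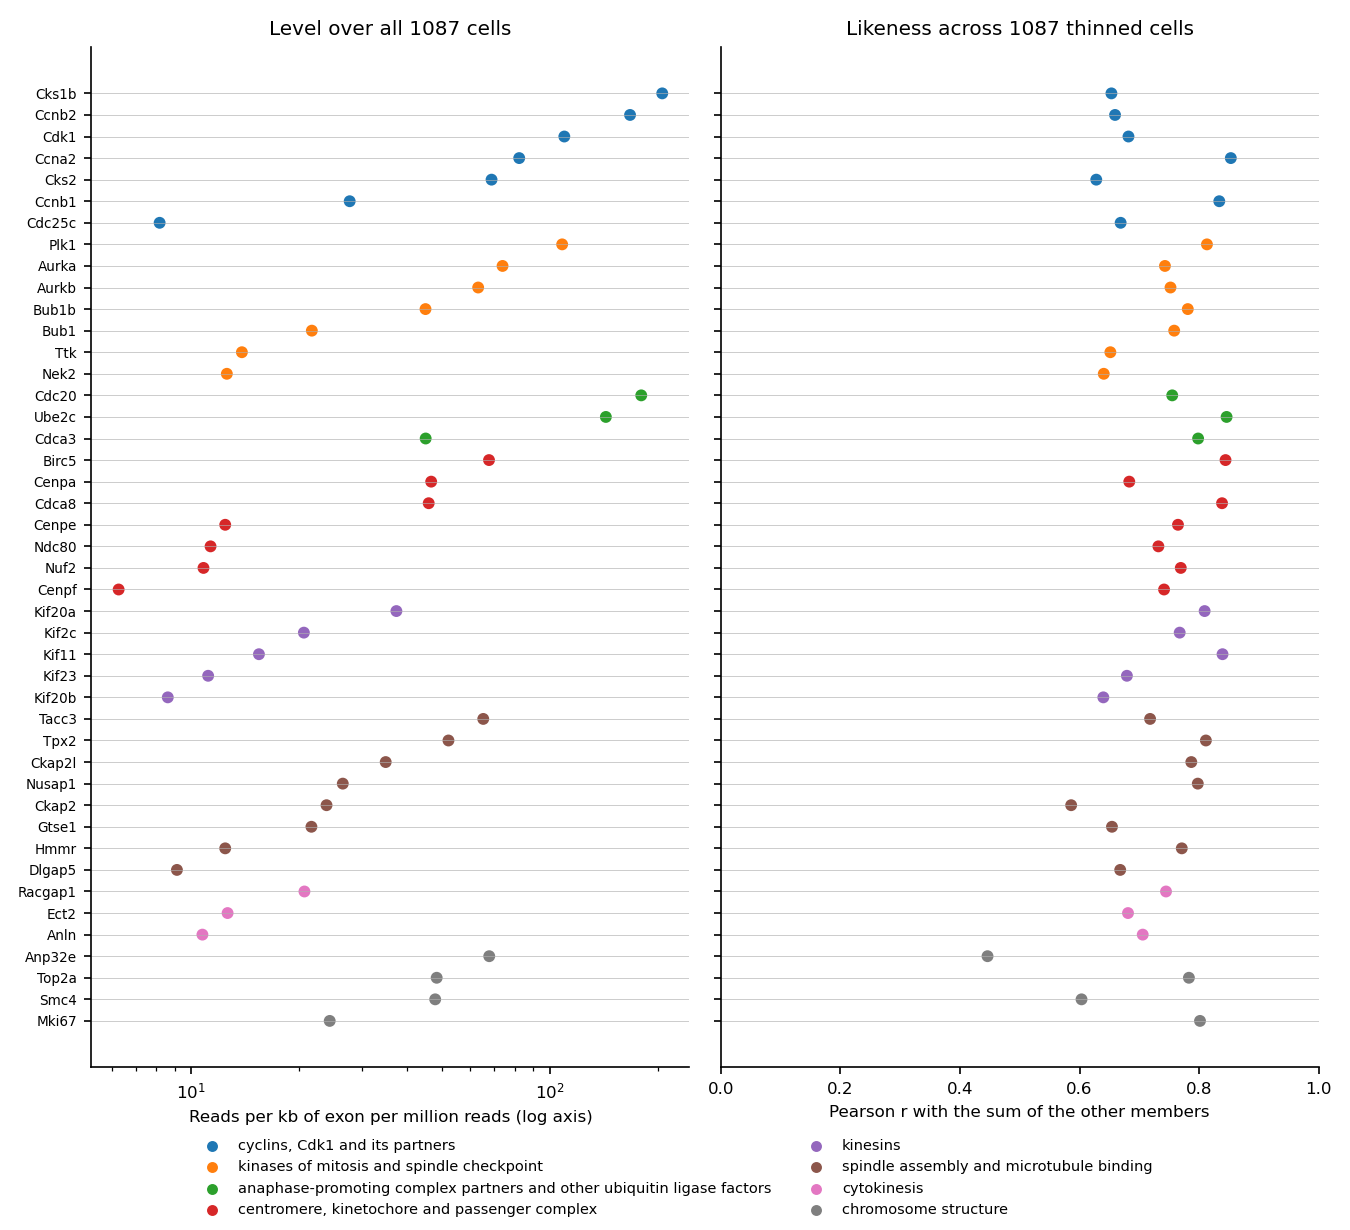
Level per length (left, RPKM over all 1087 cells, log axis) and Pearson correlation of each gene with the sum of the other members across thinned cells (right), with 1 point per gene and colours for the 8 roles. Levels run from 6.28 (Cenpf) to 206 (Cks1b), and correlations from 0.45 (Anp32e) to 0.85 (Ccna2).

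Each cell was thinned at random to 100000 reads before cells were compared with one another. The summed level of the 44 genes then ran from 150 to 25640 CPM per cell, with quartiles of 2280, 6180 and 10325 CPM. On a log scale with 4 bins for each doubling, the fullest bin of the upper range held 101 cells (6889 to 8192 CPM) and the fullest of the lower range 35 cells (861 to 1024 CPM). Each bin between 1448 and 2436 CPM held 21 to 24 cells. In all, 219 of 1087 cells lay under 1500 CPM, a mark placed in the dip after the distribution was seen. This mark and the median divide a continuous range: 29 cells lay within 10% of 1500 CPM and 81 within 10% of the overall median of 6180 CPM.

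Summed over cells, the members held 8883 CPM at E10 (8870 to 8897), 8731 CPM at E11 and 6891 CPM at E11.5 in G2VInt, 6418 CPM in G2VLo and 6797 CPM in CD27+ cells. The share of cells above the overall median was 72.4% at E10 (61.8 to 81.5%), 58.5% at E11, 49.1% at E11.5 in G2VInt, 44.5% in G2VLo and 47.9% in CD27+ cells. Under 1500 CPM lay 5.75% of the E10 cells, against 18.5% at E11, 22.6% in E11.5 G2VInt, 21.4% in G2VLo and 21.8% in CD27+ cells. The E10 group had the smallest share of low cells, with an interval (1.89 to 12.9%) that overlaps that of E11 (12.2 to 26.2%). The mix of classes moved with these groups: in G2VInt, HC1 was 63 of 87 cells at E10, 77 of 130 at E11 and 102 of 279 at E11.5, and EC was 14, 15 and 122 cells. From E11 to E11.5 the 7 endothelial markers went from 1988 to 3570 CPM over all G2VInt cells, and all 7 stem and progenitor markers were lower by 1.5-fold or more (844 and 403 CPM in sum). Over all E11.5 cells the 6 macrophage markers summed to 263 CPM in G2VInt, 1156 in G2VLo and 170 in CD27+ cells. In the same order the 5 mesenchymal markers summed to 18.5, 31.8 and 167 CPM, and the 7 endothelial markers to 3570, 2724 and 1577 CPM. The part of this mix in the group values was not tested.

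By class, HC1 held 8853 CPM, U2 (19 cells) 7229, HC2 6904, EC 6317 and U1 5948 in summed reads, where deeper cells weigh more. As the mean of per-cell CPM, U2 held 7834, HC1 7349, U1 6585, HC2 6534 and EC 6271. The order of the classes thus depends on the weighting. These clusters and classes were built by the authors from the same cells and genes, so either order is a description. Within HC1, cells spread widely: the quartiles were 1700, 6770 and 12030 CPM. Cluster 11, in which all 29 cells lay at or above 4030 CPM, had quartiles of 5490, 7140 and 8760 CPM. Its S phase genes stood at 10709 CPM, the highest of any cluster. Of the other HC2 clusters, cluster 9 had 2 of 43 cells under 1500 CPM and cluster 10 had 15 of 52. In EC, cluster 1 held 5585 CPM and cluster 2 held 7055 CPM.

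**Figure D3:**
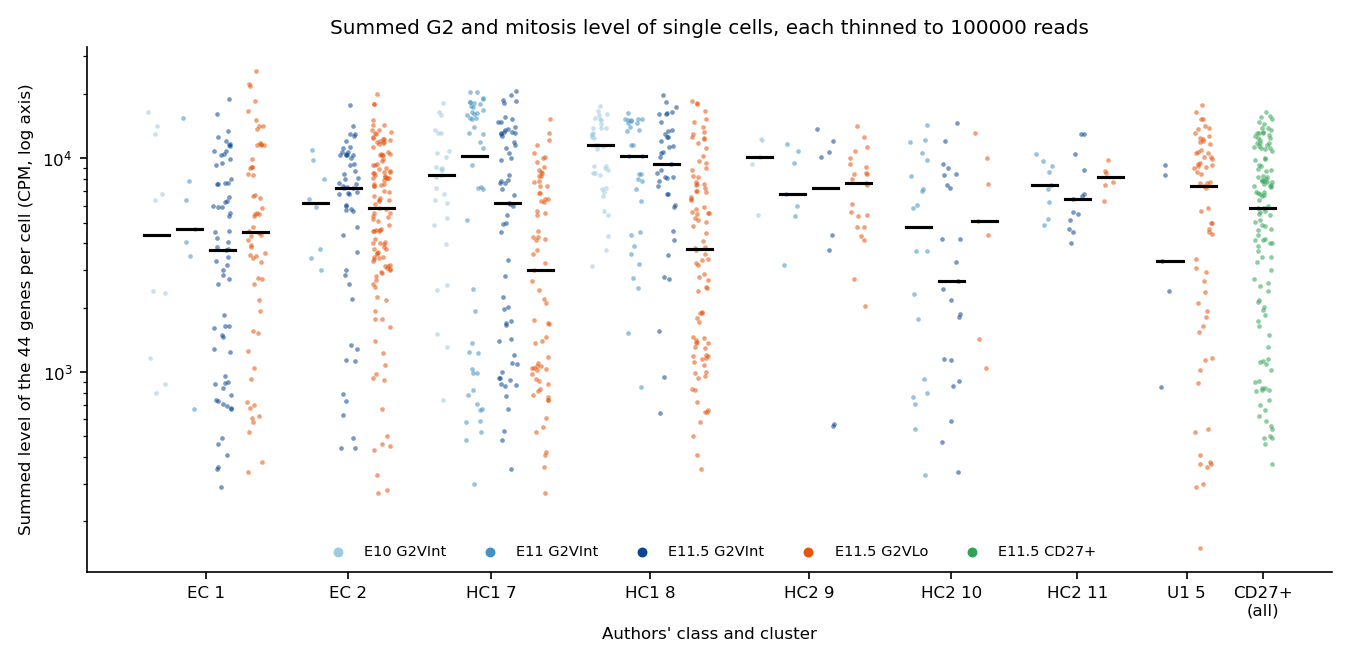
Summed level of the 44 genes in single cells thinned to 100000 reads (CPM, log axis) by the authors' class and cluster, with 1 point per cell, colours for the groups and black lines at medians; sets under 5 cells are left out and all CD27+ cells stand at the right. In clusters 7 and 8 the median of the G2VLo cells is the lowest of the groups, and in cluster 8 all 36 E10 cells lie at or above 3120 CPM.

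The gates were compared within clusters at E11.5. In cluster 8, the summed level was 10210 CPM in 39 G2VInt cells (10186 to 10234) and 5689 CPM in 92 G2VLo cells (5667 to 5712), a ratio of 1.79 or 0.84 in log2. In cluster 7 it was 7345 CPM in 63 G2VInt cells and 4212 CPM in 71 G2VLo cells, a ratio of 1.74 or 0.80 in log2. In cluster 8 the quartiles per cell were 6420, 9370 and 13195 CPM in G2VInt against 1348, 3750 and 7560 CPM in G2VLo. Of the G2VInt cells 74.4% (57.9 to 87.0%) lay above the overall median, against 34.8% (25.1 to 45.4%) of the G2VLo cells, and 5.13% against 31.5% lay under 1500 CPM. The highest cells stood at 19700 and 18450 CPM. In cluster 7 the shares above the overall median were 49.2% (36.4 to 62.1%) and 33.8% (23.0 to 46.0%), and the shares under 1500 CPM 27.0% and 39.4%, whose intervals overlap.

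Nearly all members stood on the same side. In cluster 7 all 44 had a positive log2 ratio, and 30 (68.2%) were at least 1.5-fold higher in G2VInt, where 14.4% of 9952 measured genes were. None was 1.5-fold lower, against 4.49% of genes. In cluster 8 there were 43 positive ratios, and 32 members (72.7%) at least 1.5-fold higher against 13.4% of 9849 genes, with none lower against 5.66%. The median ratio of the members was 0.73 in cluster 7 and 0.87 in cluster 8, beside 0.14 in each for all measured genes, so relative to all genes it was 0.59 and 0.73.

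In cluster 7 the 4 largest ratios were those of Nusap1, Ube2c, Aurka and Nek2. Nusap1, which bundles spindle microtubules, held 131 CPM (128 to 133) in G2VInt and 34.9 CPM (32.9 to 37.0) in G2VLo, a 3.74-fold difference. Ube2c held 350 and 95.7 CPM (3.66-fold), Aurka 202 and 56.8 CPM (3.56-fold) and Nek2 50.8 and 14.5 CPM (3.50-fold). Reads of Nek2 were found in 52.4% and 22.5% of thinned cells. For each of these 4 genes the level in every G2VInt run lay above that in every G2VLo run. That order was found for 12 of the 44 members and for 5.30% of all measured genes. Aurka, for example, held 144, 180 and 258 CPM in the G2VInt runs and 35.4 to 68.5 CPM in the G2VLo runs. At the other end, Ckap2 (75.1 and 63.2 CPM), Bub1 (88.4 and 73.5), Anp32e (249 and 205) and Ccnb2 (286 and 234) differed by 1.19- to 1.22-fold.

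In cluster 8 the 4 largest ratios were those of Nek2, Kif2c, Nusap1 and Aurka. Nek2 held 110 CPM (107 to 112) in G2VInt and 32.8 CPM (31.1 to 34.5) in G2VLo, a 3.36-fold difference. Kif2c, a kinesin that takes microtubules apart at kinetochores, held 129 and 49.8 CPM (2.58-fold), Nusap1 152 and 62.9 CPM (2.42-fold) and Aurka 273 and 114 CPM (2.40-fold). Only Nusap1 of these 4 was higher in every G2VInt run than in every G2VLo run. In this cluster 18 of the 44 members and 9.04% of all measured genes were. Kif20b was level (70.8 and 70.9 CPM), as was the condensin subunit Smc4 (250 and 245 CPM). Ndc80 (83.7 and 67.4 CPM) and Dlgap5 (78.7 and 60.9 CPM) followed.

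By role, the kinases had the largest median ratio in both clusters, 1.60 in cluster 7 and 1.19 in cluster 8, with 6 of 7 at least 1.5-fold higher in each. Of all measured genes, 14.4% were so in cluster 7 and 13.4% in cluster 8. The 7 cyclins, Cdk1 and partners had medians of 0.48 and 0.84, with 2 and 6 past the threshold. All 3 ubiquitin ligase factors passed it in cluster 8, with Cdc20 at 560 and 254 CPM, and 2 of 3 in cluster 7. The 7 centromere genes had medians of 0.76 and 0.80, the 5 kinesins 0.74 and 0.94, the 8 spindle genes 0.81 and 1.02 and the 3 cytokinesis genes 0.71 and 0.85. The 4 chromosome structure genes were lower at 0.49 and 0.53. Members with and without a CHR match in their promoter window had medians of 0.73 and 0.87 in cluster 7 and of 0.91 and 0.74 in cluster 8.

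The summed level was also read in runs of library numbers. In cluster 7 the 3 G2VInt runs held 6120 to 8687 CPM and the 6 G2VLo runs 2659 to 4971 CPM. In cluster 8 the 3 G2VInt runs held 8411 to 12056 CPM and the 5 G2VLo runs with at least 5 cells 4743 to 7342 CPM. Neither pair of ranges overlaps. With the second clustering, of all cells, in place of the first, the log2 ratio in cluster 7 was 0.55, under 1.5-fold. Among single members, every G2VInt run lay above every G2VLo run for 12 of 44 in cluster 7, where 5.30% of genes did so, and for 18 of 44 in cluster 8, where 9.04% did. Aurkb, Bub1b, Cks1b and Nusap1 were on both lists. The reverse order was found for 0 members in each, against 1.35% of genes in cluster 7 and 1.96% in cluster 8.

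**Figure D4:**
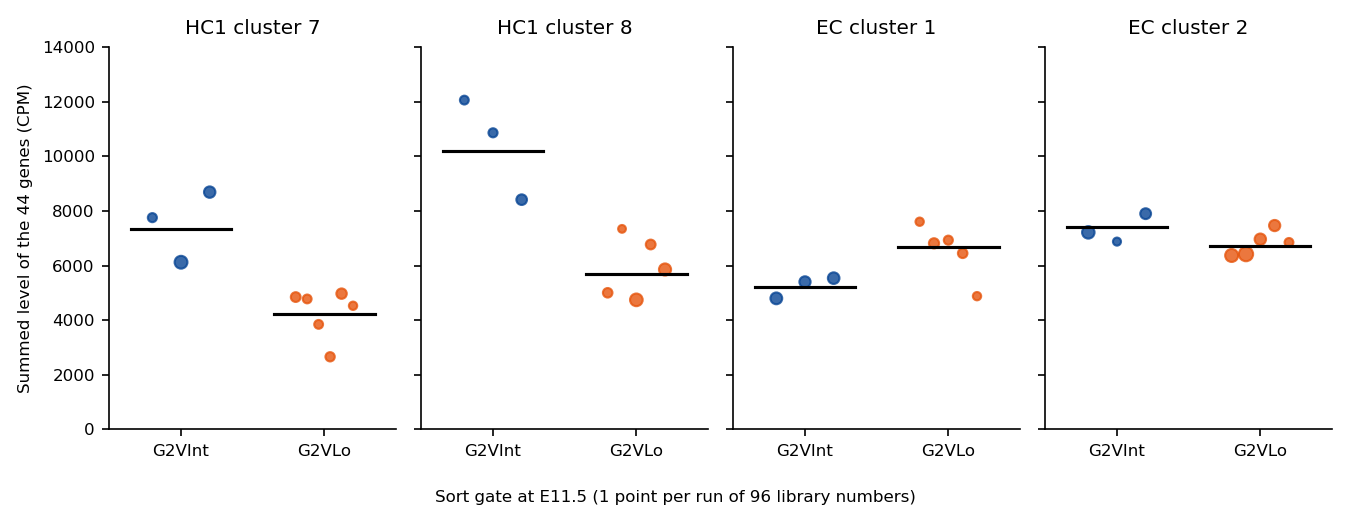
Summed level of the 44 genes (CPM) by sort gate at E11.5 in clusters 7, 8, 1 and 2, with 1 point per run of 96 library numbers holding at least 5 cells, point size growing with the number of cells, and black lines at the level over all cells of the gate. Points of the gates do not overlap in clusters 7 and 8 and overlap in clusters 1 and 2.

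Of 51 other G2 and mitosis genes measured that are not members, 37 were at least 1.5-fold higher in G2VInt in cluster 7 (median log2 ratio 0.86) and 34 in cluster 8 (0.74), with 0 lower in either. For this and the lists below, 14.4% of all measured genes were higher and 4.49% lower in cluster 7. In cluster 8 these shares were 13.4% and 5.66%. In cluster 7 the largest ratios were those of Kif18b, a plus-end kinesin (24.8 and 5.66 CPM), Troap (59.9 and 16.2 CPM), Fam83d (46.9 and 13.1 CPM) and Prc1, the bundler of the central spindle (143 and 40.5 CPM). In cluster 8 they were those of Kif4, a chromosome-bound kinesin (81.7 and 32.2 CPM), Fam83d (69.3 and 27.9 CPM), Kif18b (39.1 and 15.9 CPM) and Espl1, the separase that cuts cohesin (98.3 and 40.2 CPM). Of 40 S phase genes, 4 were higher and 0 lower in cluster 7 (median 0.13), and 0 were higher and 3 lower in cluster 8 (median -0.18). Those 3 were the clamp loader subunit Dscc1 (18.1 and 34.9 CPM), the replication licensing factor Cdc6 (43.0 and 77.9 CPM) and the uracil glycosylase Ung (68.0 and 117 CPM), and Dscc1 stood the other way in cluster 7 (27.9 and 12.7 CPM). Of 25 regulators of these genes, 9 were higher in cluster 7, led by E2f7, a repressor of E2F targets (18.7 and 8.75 CPM), and Foxm1, the activator that works with MuvB (37.0 and 17.7 CPM). In cluster 8, 4 of 24 were higher and 1 lower, with the phosphatase Cdc25b at 79.5 and 37.8 CPM and E2f2 at 6.96 and 11.9 CPM. Of 8 genes of inhibitors and cells outside the cycle, 6 were measured, of which 3 were higher and 1 lower in cluster 7 and 0 higher and 2 lower in cluster 8. The antiproliferative and immediate-early gene Btg2 was lower in G2VInt in cluster 7 (36.6 and 153 CPM) and cluster 8 (38.5 and 151 CPM). The cyclin kinase inhibitor Cdkn1a was lower in cluster 8 (9.33 and 26.6 CPM). Another inhibitor, Cdkn1c, held 603 and 378 CPM in cluster 7 and 125 and 175 CPM in cluster 8.

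Depth moved with the gate. The median number of reads per cell was 1643760 in G2VInt and 418321 in G2VLo cells of cluster 7, and 1446320 and 466202 in cluster 8. The median mitochondrial share was 2.50% and 5.57% in cluster 7, and 2.55% and 5.93% in cluster 8. With every cell thinned to the same 100000 reads the log2 ratio of the sum was 0.78 in cluster 7 and 0.87 in cluster 8. The sum of 7 endothelial markers was 2041 and 1774 CPM in cluster 7 and 1107 and 974 CPM in cluster 8, with none of the 7 past 1.5-fold. The 6 markers of HC2 summed to 126 and 76.9 CPM in cluster 7, with 5 higher, 1 lower and Car1 at 0 in G2VLo, and to 375 and 351 CPM in cluster 8, with 4 higher and 1 lower. Macrophage markers summed to 21.4 and 34.6 CPM in cluster 7 and to 24.3 and 27.0 CPM in cluster 8, and 3 smooth muscle markers to 441 and 385 CPM and to 11.4 and 90.3 CPM. The 7 stem and progenitor markers summed to 963 and 777 CPM and to 821 and 780 CPM. The part of depth, mitochondrial share and these markers in the gate difference was not tested. Only that thinning and the other totals given at the end were tried.

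In EC cluster 1 the members stood the other way. Their sum was 5232 CPM in 68 G2VInt cells and 6685 CPM in 60 G2VLo cells, a log2 ratio of -0.35. Of the 44, 2 had positive ratios. None was 1.5-fold higher, against 12.8% of 9898 genes, and 7 (15.9%) were 1.5-fold lower, against 3.61%. The lowest were the kinetochore motor Cenpe (82.6 and 159 CPM), Nek2 (40.1 and 65.5 CPM), Nuf2 (43.6 and 70.8 CPM) and Cenpf (60.7 and 98.1 CPM). The highest were Cdc25c (31.3 and 28.5 CPM), Gtse1 (49.7 and 47.1 CPM), Nusap1 (73.6 and 79.1 CPM) and Cenpa (192 and 207 CPM). The runs overlapped, at 4798 to 5538 CPM in G2VInt and 4878 to 7604 CPM in G2VLo, and the log2 ratio was -0.073 in the upper library numbers. Every G2VInt run lay below every G2VLo run for 5 members (Ccnb1, Nek2, Cenpf, Ckap2 and Smc4), an order found for 1.99% of genes, and above for 0, against 9.25%. The S phase list was lower too, with a median of -0.31. Median depth was 2196220 and 620336 reads per cell, the median mitochondrial share 3.11% and 6.62%, and the 6 HC2 markers summed to 5.89 and 28.3 CPM. The part of these in the difference was not tested.

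In EC cluster 2 the members were nearly level, at 7417 CPM in 54 G2VInt cells and 6713 CPM in 124 G2VLo cells (log2 ratio 0.14). Nek2 alone was 1.5-fold higher (60.4 and 38.3 CPM), against 9.51% of 9573 genes, and 0 were lower, against 1.32%. The next highest were Ttk, a checkpoint kinase (85.4 and 59.3 CPM), Kif2c (107 and 76.0 CPM) and Cenpa (288 and 216 CPM), and the lowest Kif20b (42.2 and 58.6 CPM), Cenpf, Cenpe and Smc4. Every G2VInt run lay above every G2VLo run for 7 members, a share close to that of all genes (12.9%), and below for 0 (2.14%). Median depth was 2266370 and 656373 reads per cell and the median mitochondrial share 3.28% and 7.22%. In HC2 the sum was 6734 CPM in 44 G2VInt cells and 7584 CPM in 36 G2VLo cells (log2 ratio -0.17). There 9 of 44 members (20.5%) were 1.5-fold lower, against 9.76% of 9525 genes, and 0 higher, against 19.2%. The lowest were Ckap2 (40.8 and 74.5 CPM), Cenpe, Bub1 and Nuf2, and the highest Ccnb2 (302 and 218 CPM) and Cdca3. Different clusters hold most of HC2 in the gates: 23 of 44 G2VInt cells were of cluster 10 and 23 of 36 G2VLo cells of cluster 9. Endothelial markers there summed to 131 and 292 CPM, with 6 of 7 lower in G2VInt. Median depth was 1665490 and 562140 reads per cell and the median mitochondrial share 3.41% and 6.49%. The part of these in the differences was not tested.

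**Figure D5:**
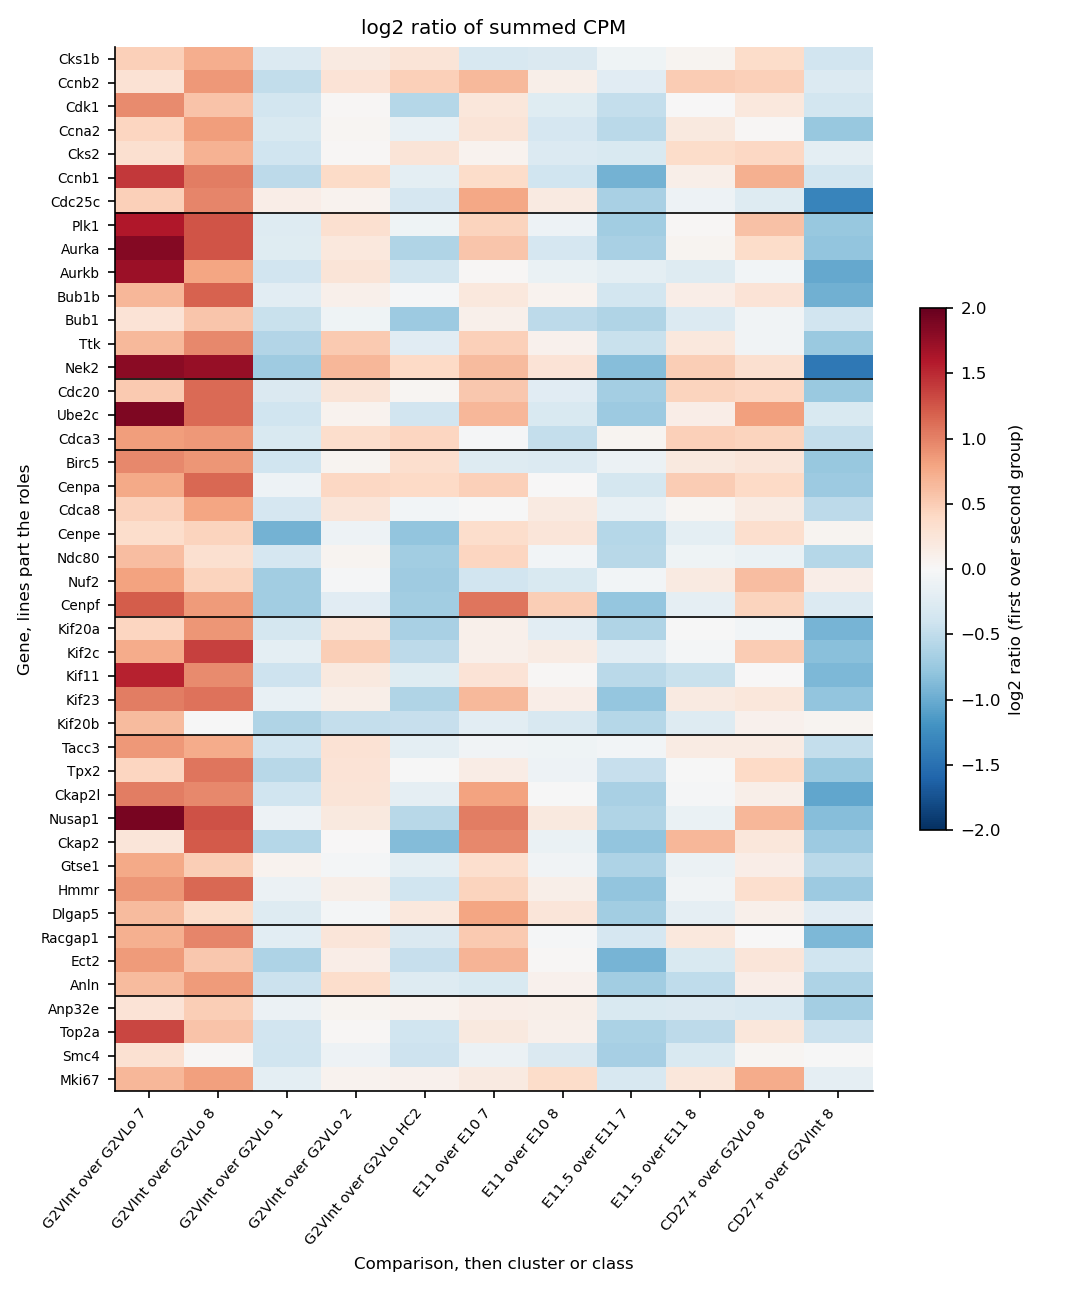
log2 ratio of summed CPM for each of the 44 genes (rows, parted by role) in 11 comparisons (columns: the 2 groups, then the cluster or class), red where the first group was higher and blue where the second was. The columns of the gate in clusters 7 and 8 are red for nearly all genes, that in cluster 1 mostly pale blue, and those of E11.5 over E11 in cluster 7 and CD27+ over G2VInt mostly blue.

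The days were compared in G2VInt cells. These comparisons share the E11 cells with each other and the E11.5 cells with the gate comparison, so each is given by its own values. In cluster 8 the sum stayed nearly level: 10564 CPM in 36 E10 cells, 9947 CPM in 31 E11 cells and 10210 CPM in 39 E11.5 cells. From E10 to E11 none of the 44 genes was 1.5-fold higher (14.1% of genes) or lower (6.72%). The extremes were Cenpf (103 CPM at E10 and 145 at E11) and Bub1 (181 and 126 CPM). From E11 to E11.5 the one gene past the threshold was Ckap2, a microtubule-associated protein (90.7 and 144 CPM), where 7.19% of genes were higher and 12.0% lower. Top2a went from 740 to 513 CPM and Anln from 174 to 122 CPM. The share of cells above the overall median was 86.1%, 71.0% and 74.4%. From E10 to E11 the endothelial markers of this cluster went from 690 to 1271 CPM, with 6 of 7 higher by 1.5-fold. The stem and progenitor markers went from 709 to 1037 CPM, with 4 of 7 higher. At E11.5 these sums were 1107 and 821 CPM, with 2 lower in each. Median depth was 1949030, 2498040 and 1446320 reads per cell over the 3 days. The part of these was not tested.

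In cluster 7 the sum was 8451 CPM in 27 E10 cells, 10257 CPM in 46 E11 cells and 7345 CPM in 63 E11.5 cells. From E10 to E11, 11 of 44 members were 1.5-fold higher, where 17.4% of 10136 genes were, and 0 lower, against 8.78%. The highest ratios were those of Cenpf (86.0 and 180 CPM), Nusap1 (97.5 and 198 CPM), Ckap2 (66.5 and 130 CPM) and Ckap2l (102 and 179 CPM), while Nuf2, Cks1b, Anln and Birc5 had the lowest. The summed ratio was 0.28 in log2, and -0.13 when the second clustering was used. There cluster 7 holds only 11 E10 cells, under the limit of 20 cells a side, and 45 E11 cells. From E11 to E11.5, 21 members (47.7%) were 1.5-fold lower, against 9.86% of 10105 genes, and 0 higher, against 4.46%. The summed log2 ratio was -0.48. Ccnb1 went from 206 to 107 CPM, Ect2 from 109 to 57.4 CPM, Nek2 from 91.5 to 50.8 CPM and Ckap2 from 130 to 75.1 CPM. Cdca3 (137 and 143 CPM), Nuf2, Tacc3 and Cks1b were level. The S phase list had a median of -0.37 from E10 to E11 and 0.11 from E11 to E11.5. In the E11 cells of cluster 7 the spread between cells was wide, with quartiles of 1000, 10230 and 16465 CPM and 34.8% of cells under 1500 CPM, against 7.41% at E10 and 27.0% at E11.5. The E11 runs held 9450 and 11706 CPM, both above the 6120 to 8687 CPM of the 3 E11.5 runs. Median depth in cluster 7 was 2426000 reads per cell at E11 and 1643760 at E11.5, and the median mitochondrial share 2.20% and 2.50%. Over the same days 5 mesenchymal markers went from 28.3 to 7.14 CPM, with 3 lower by 1.5-fold, and 6 macrophage markers from 13.6 to 21.4 CPM, with 4 higher and 1 lower. From E10 to E11 the endothelial markers went from 1568 to 2303 CPM, with 2 of 7 higher. The stem and progenitor markers went from 871 to 1128 CPM, with 4 of 7 higher. The part of these was not tested. In HC2 the sum was 6577 CPM at E11 and 6734 CPM at E11.5.

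CD27+ cells were set beside the gates in cluster 8 of that second clustering, where 69 of the 119 lie. There the sum was 6927 CPM in CD27+ cells, 5712 CPM in 123 G2VLo cells and 10210 CPM in 37 G2VInt cells. Against G2VLo the log2 ratio was 0.28, with 5 members (11.4%) 1.5-fold higher, where 6.06% of 9656 genes were, and 0 lower, against 9.08%. The highest were Ube2c (414 and 235 CPM), Mki67 (311 and 186 CPM), Ccnb1 (123 and 75.1 CPM) and Nusap1 (99.6 and 62.7 CPM), and the lowest Anp32e (179 and 223 CPM) and Cdc25c (28.6 and 34.3 CPM). The S phase list lay lower in CD27+ cells, with a median of -0.47 and 16 of 40 genes 1.5-fold lower, against the same 9.08%. Its sum was 5796 CPM in the first CD27+ run (58 cells) and 8102 CPM in the second (11 cells), beside 8504 CPM in G2VLo. Against G2VInt the log2 ratio was -0.56, with 23 members (52.3%) 1.5-fold lower, where 20.5% of 9847 genes were, and 0 higher, against 7.30%. The median of all genes was -0.21 in this comparison and that of the members -0.65. That of the S phase list was -0.40, with 11 of 40 genes 1.5-fold lower. Nek2 (38.7 and 104 CPM), Cdc25c (28.6 and 71.6 CPM), Ckap2l (82.5 and 169 CPM) and Aurkb (140 and 284 CPM) had the lowest ratios, and Nuf2 (98.6 and 90.0 CPM), Kif20b, Cenpe and Smc4 the highest.

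Levels differed between the runs of the CD27+ cells. The 58 cells of the first run in this cluster held 5975 CPM and the 11 cells of the second 10714 CPM, with median mitochondrial shares of 8.68% and 4.74%. Over all CD27+ cells the values were 5816 CPM in 96 cells and 10203 CPM in 23 cells. With the first run alone the log2 ratio against G2VLo was 0.065 and against G2VInt -0.77, and with the second alone 0.91 and 0.069. Both comparisons thus depend on which CD27+ run is used. Median depth in this cluster was 597733 reads per CD27+ cell, 500805 per G2VLo cell and 1435670 per G2VInt cell, and the median mitochondrial share 8.44%, 5.93% and 2.61%. Macrophage markers summed to 62.8 CPM in CD27+, 31.3 in G2VLo and 30.8 in G2VInt cells, with 4 and 5 of 6 higher by 1.5-fold. The part of depth, mitochondrial share and these markers was not tested.

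Across the 1087 thinned cells each member was correlated with the summed level of the other 43, on log2 of CPM plus 1. The cells come from groups and runs that differ in level, which the points share, so the values describe likeness only. Cyclin A2 (Ccna2) was most like the rest, at r = 0.85, with Ube2c and Birc5 also near 0.85 and 0.84. Anp32e (0.45), Ckap2 (0.59) and Smc4 (0.60) were least like it. Within clusters 1, 2, 7 and 8, r of Ccna2 was 0.86, 0.85, 0.90 and 0.84, and that of Anp32e 0.58, 0.56, 0.39 and 0.31. Anp32e and Smc4 were also found in nearly every cell, with reads in 98.1% and 96.6% of them, against 53.3% for Nek2 and 54.4% for Cdc25c.

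Among protein-coding genes outside the set with a read in at least 20% of thinned cells, Kif15 (r = 0.80), Pimreg (0.78), Kif22 (0.77), Spc25 (0.75) and Prc1 (0.75) followed the members' sum most closely. They were followed by Shcbp1, Ncapg, Hmgb2, Pbk, Knl1, Ska1, Knstrn, Kif4 and Tuba1b, down to 0.71. Of the genes named here, all except the kinetochore adaptor Knstrn and the tubulin Tuba1b were on the list of other G2 and mitosis genes. The most negative value was that of Ung (r = -0.33), a gene of the S phase list, followed by Mxd4 (-0.27), a repressor of the Myc network. The summed level of the members and that of the S phase genes had r = 0.23 over all cells, 0.31 in cluster 1, 0.26 in cluster 2, 0.17 in cluster 7 and -0.19 in cluster 8.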

How the data were processed

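The authors deposited raw counts of reads per gene for single cells, made with HTSeq 0.6.0 on GRCm38 per the submitters' processing notes; libraries were Nextera XT per the labels. The aligner, annotation, strand setting and cell filters are not given in the sources used here. Of 46078 gene entries 45229 matched a symbol (GENCODE M21), and entries without one held 0.0859% of reads. Counts were summed over the cells of a group and cluster and divided by summed totals. PCR reads without molecular identifiers are not independent, so intervals and the floor of 3 counts at 0 cover counting error only. For values per cell, reads were thinned once to 100000 (seed 1). No doublet caller was run. No test was made. A comparison needed 20 cells a side, a limit not applied to the alternatives. The 4 members with the highest and the 4 with the lowest ratio were named, as were the genes with the highest and lowest level per length of each role, the 2 to 4 genes of the other lists with the largest ratios and the 15 other genes most alike in correlation, of which 1 is not reported here; further members and genes with values were picked after their values were seen. Members and lists were chosen with earlier results of these data known. The minimum of 5 cells per run was chosen after seeing the data. Ratios were recovered beforehand from simulated Poisson counts. These held no variation between cells or runs, so they check the calculation only. Alternatives were TMM scaling (edgeR 4.0.16, R 4.3.3), thinning, per-cell means, other totals, filters, clusters and library numbers. Scripts used Python 3.11.15, numpy 2.4.6, pandas 2.3.3 and scipy 1.17.1.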

Additional observations from a re-analysis of the deposited data

Results flagged for a closer look

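The ratio between the sort gates went opposite ways in different clusters of the same day. The log2 ratio of the summed level, G2VInt over G2VLo at E11.5, was 0.80 in cluster 7 and 0.84 in cluster 8, and -0.35 in cluster 1 and -0.17 in HC2. The gaps were 1.16 between clusters 7 and 1, 0.97 between cluster 7 and HC2, 1.20 between clusters 8 and 1 and 1.02 between cluster 8 and HC2. These differences were not tested, since each group is 1 sample.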

How the results depend on the processing

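Values are log2 ratios of the summed level, in the order gate in clusters 7, 8, 1 and 2, E11 over E10 in clusters 7 and 8, E11.5 over E11 in clusters 7 and 8, CD27+ over G2VLo and CD27+ over G2VInt. As reported they were 0.80, 0.84, -0.35, 0.14, 0.28, -0.087, -0.48, 0.038, 0.28 and -0.56. The mean of per-cell CPM gave 0.77, 0.87, -0.39, 0.067, 0.19, -0.19, -0.36, 0.037, 0.23 and -0.62. Scaling with edgeR TMM factors gave 0.69, 0.73, -0.44, -0.0045, 0.25, -0.12, -0.42, 0.068, 0.32 and -0.40. Thinning to 100000 reads gave 0.78, 0.87, -0.41, 0.070, 0.18, -0.19, -0.35, 0.035, 0.23 and -0.62. A total without mitochondrial genes gave 0.75, 0.79, -0.41, 0.085, 0.28, -0.082, -0.48, 0.041, 0.31 and -0.48. The lower library numbers of both groups gave 0.67, 1.05, -0.60, 0.20, 0.57, -0.32, -0.52, 0.42, 0.29 and -0.75. The upper library numbers gave 0.92, 0.70, -0.073, 0.031, 0.080, 0.029, -0.45, -0.17, 0.27 and -0.39. Leaving out the 5% of cells with the highest sums gave 0.75, 0.97, -0.41, 0.16, 0.26, -0.16, -0.55, 0.10, 0.31 and -0.59. Leaving out the 5 members with the most reads gave 0.75, 0.85, -0.35, 0.17, 0.25, -0.051, -0.44, 0.046, 0.26 and -0.59. The clusters of all cells gave 0.55, 0.84, -0.27, 0.065, -0.13, 0.15, -0.37 and -0.037 for the first 8. Of these, the -0.13 rests on only 11 E10 cells. With the CD27+ cells of the first run alone the last 2 were 0.065 and -0.77, and with those of the second run 0.91 and 0.069, where the median ratio of the members against G2VInt turned from -0.65 to 0.084. These splits by run and the mark of 1500 CPM were chosen after seeing the data. The sign of the gate ratio in clusters 7, 8 and 1, of E11.5 over E11 in cluster 7 and of both CD27+ comparisons was the same in every setting other than the run splits, and those of the other comparisons turned in at least 1 setting. The gate ratio in cluster 7 was under 1.5-fold with the clusters of all cells. The causes of these shifts were not tested. No paired analysis was possible because the labels number single cells and name no embryo, litter or sort that groups share. Each group is 1 sample, so leaving out a replicate could not be done. Depth limits genes with few reads per cell, such as Nek2 and Cdc25c.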
